A study of Homo sapiens with 6 samples.

Results

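Clustered histone genes were followed in U251 cells, an established human glioblastoma line. These are the genes formerly named HIST1H, HIST2H, HIST3H or HIST4H after the genomic cluster they lie in, and now named H1-1 to H1-6, or H2AC, H2BC, H3C or H4C with a number. On the array, 79 probes of 70 such genes were found by their annotated symbol. A probe was kept if its detection p, the share of negative control beads at least as bright, was below 0.05 on 2 or more of 6 arrays. That left 28 probes of 25 genes, among 19876 probes and 11322 named genes that passed the same filter. The rule reads names and detection only.

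Total RNA of 6 samples of these cells was hybridised to 6 Illumina HT-12 v4 bead arrays with 1 colour, 5 days after lentiviral transduction. In 3 samples (shCON) the pLKO1.5 vector carried a control shRNA with no target, and in 3 (shCypB) it carried an shRNA against the CypB gene, which encodes cyclophilin B and has the symbol PPIB. Both groups were thus transduced, and the labels name 1 vector per group, so loss of cyclophilin B and other effects of that shRNA cannot be told apart. The labels describe the samples of a group as biological replicates, without saying whether they came from separate cultures.

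Core histones H2A, H2B, H3 and H4 form the protein spool of the nucleosome, and linker histone H1 binds the DNA between nucleosomes. Most clustered histone genes are transcribed during S phase, when new DNA has to be packaged, and their mRNAs end in a stem-loop bound by SLBP in place of a poly(A) tail. Some of them are also known to give polyadenylated mRNA in cells that have left the cell cycle. Per the labels, RNA was labelled with biotin by the manufacturer's standard method. The labels do not say how it was primed, so the part of each mRNA form in a signal was not tested.

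The arrays detected 16597 to 18700 of 47231 probes each. Correlations of log2 signals were 0.986 to 0.993 over the 6 pairs of arrays of the same group and 0.961 to 0.968 over the 9 pairs from different groups. The PPIB probe read 6.05, 5.68 and 5.35 in shCON and was undetected on all 3 arrays of shCypB, at least 1.45-fold lower (adjusted p = 0.0045). CDKN1A, which encodes the cyclin-dependent kinase inhibitor p21, had a log2 change of 1.41 ± 0.11 (SE, adjusted p = 0.00020). Of 6 markers of glioma lines 5 were detected on all 6 arrays. By brightest probe 2 of these, GFAP and NES, were lower at an adjusted p below 0.05, against 18.4% of all genes tested. VIM and CD44 did not pass by brightest probe, but another probe of each did, with changes of -0.39 and 0.35. Of 7 markers of other cell types 0 were detected on all 6 arrays, and the 2 that were tested, CD14 and PECAM1, did not pass. In bulk RNA, fewer cells of a kind and less RNA per cell cannot be told apart.

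Promoters of 6 kept genes are shown because they cover the H2A, H2B, H1 and H4 genes that the results turn on. Each is the 250 bases before the start site in RefSeq (GRCh38.p14), 5′ to 3′ on the gene's own strand. The regions are chr1:149886683-149886932, minus strand, for H2BC21, chr6:26123922-26124171, plus strand, for H2AC6, and chr6:27146856-27147105, minus strand, for H2BC12. They are chr6:26157872-26158121, plus strand, for H2BC5, chr6:26056471-26056720, minus strand, for H1-2, and chr1:149832407-149832656, plus strand, for H4C14. Capitals mark matches on either strand to the octamer ATTTGCAT, to CCAAT and to TATAAA, and a run of capitals longer than a motif holds overlapping matches.
H2BC21: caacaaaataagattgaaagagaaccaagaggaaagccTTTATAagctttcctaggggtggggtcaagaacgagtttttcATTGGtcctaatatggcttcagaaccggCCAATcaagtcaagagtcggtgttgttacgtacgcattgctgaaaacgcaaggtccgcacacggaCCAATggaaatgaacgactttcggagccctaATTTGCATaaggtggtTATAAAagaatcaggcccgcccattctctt
H2AC6: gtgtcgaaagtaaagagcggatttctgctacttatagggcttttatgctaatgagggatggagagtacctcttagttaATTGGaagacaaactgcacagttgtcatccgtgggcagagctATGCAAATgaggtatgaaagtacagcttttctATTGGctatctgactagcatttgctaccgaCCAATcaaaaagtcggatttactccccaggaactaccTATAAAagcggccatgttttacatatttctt
H2BC12: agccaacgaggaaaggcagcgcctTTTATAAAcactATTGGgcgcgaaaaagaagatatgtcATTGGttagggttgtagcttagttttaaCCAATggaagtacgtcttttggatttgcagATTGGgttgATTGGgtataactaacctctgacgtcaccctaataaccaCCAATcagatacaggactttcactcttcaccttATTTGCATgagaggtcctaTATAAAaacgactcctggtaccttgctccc
H2BC5: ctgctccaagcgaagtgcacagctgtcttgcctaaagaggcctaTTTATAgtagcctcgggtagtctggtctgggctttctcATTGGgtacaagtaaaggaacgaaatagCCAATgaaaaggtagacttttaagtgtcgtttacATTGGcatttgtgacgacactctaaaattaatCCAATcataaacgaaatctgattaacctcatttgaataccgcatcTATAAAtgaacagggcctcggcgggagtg
H1-2: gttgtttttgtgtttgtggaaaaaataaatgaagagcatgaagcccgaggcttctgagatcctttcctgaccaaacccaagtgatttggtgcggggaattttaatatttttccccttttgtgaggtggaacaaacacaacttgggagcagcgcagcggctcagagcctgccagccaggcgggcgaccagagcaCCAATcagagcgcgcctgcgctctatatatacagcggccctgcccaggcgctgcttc
H4C14: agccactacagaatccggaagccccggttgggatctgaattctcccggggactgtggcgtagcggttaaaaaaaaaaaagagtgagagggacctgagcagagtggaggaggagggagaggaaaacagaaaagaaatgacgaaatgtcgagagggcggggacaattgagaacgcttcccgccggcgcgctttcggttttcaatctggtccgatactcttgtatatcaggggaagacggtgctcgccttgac

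The octamer is the element known from H2B promoters, where the factor Oct-1 binds it. It was found in windows from 250 bases before to 50 after the start for 11 of the 24 kept genes with a promoter entry (45.8%), against 504 of 27305 promoters of the same length (1.85%). By class it was in 7 of 8 H2B windows, 4 of 7 H2A windows and 0 of the 9 of H1, H3 and H4. The 11 windows hold 7 distinct sites, since each of the 4 in H2A windows also lies in the window of an H2B gene that faces it. CCAAT was in 20 of 24 windows (83.3%), against 35.4% of all promoters, and in 0 of the 4 H4 windows. TATAAA was in 17 of 24 windows (70.8%), against 12.3%. These 2 motifs were also counted again in windows that overlap: 13 of 42 distinct CCAAT sites and 7 of 22 TATAAA sites lay in 2 or more windows. For H2BC17 and H2BC4 the only TATAAA match was the site of the H2A gene that faces it. The octamer was present in 4 of the 9 genes that rose, 1 of the 2 that fell and 6 of the 13 that did not pass. In H2BC21, H2BC11, H2BC12, H2BC18 and H2BC9 it began 46 to 49 bases before the start on the gene's strand. H2BC21, H2BC11 and H2BC12 rose, while H2BC18 and H2BC9 did not pass.

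**Figure D1:**
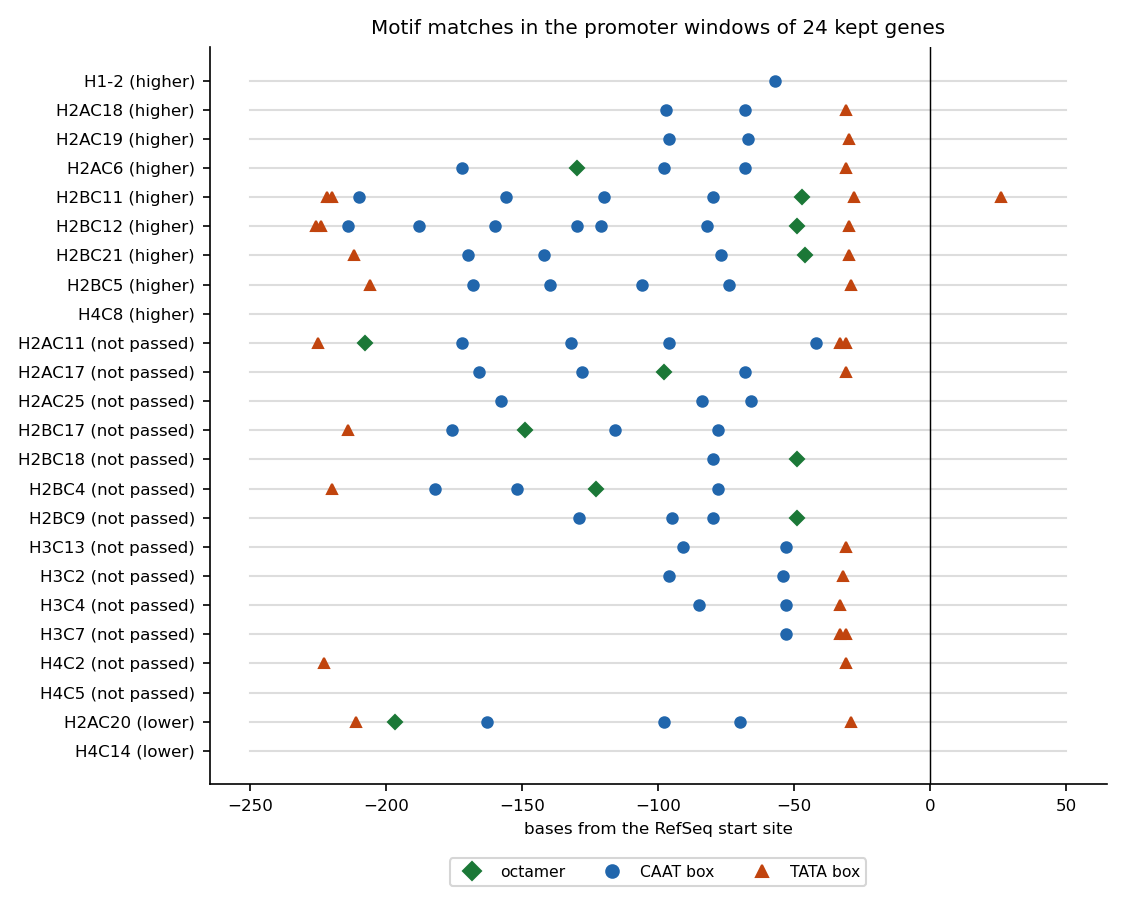
Positions of the octamer (diamonds), CCAAT (circles) and TATAAA (triangles) in the windows of 24 kept genes, in bases from the RefSeq start site, with both strands shown alike and genes ordered by their call. The 4 H4 windows hold neither an octamer nor a CCAAT match, and octamers occur in genes of all 3 calls.

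Clustered histone genes did not move one way in shCypB cells: H1-2, 3 H2A genes, 4 H2B genes and H4C8 rose, while H2AC20, H4C3 and H4C14 fell. Of the 28 kept probes, 12 were higher and 3 lower at an adjusted p below 0.05 (limma, Benjamini-Hochberg over all 19876 probes), and 13 did not pass. Of all probes tested, 17.2% were higher and 15.4% lower. Under median scaling 12 kept probes were higher and 1 lower, and over all probes 913 in place of 3065 were lower, with 80.3% of all calls higher in place of 52.7%. By gene the counts were 9 higher, 3 lower and 13 not passed of 25, against 20.4% higher and 18.4% lower of all genes tested. A probe can pass the filter through 1 group alone, so probes detected on all 6 arrays are given apart: 9 of these 15 probes were higher, 3 lower and 3 not passed, against 20.0% and 20.1% of the 13602 probes detected on all 6 arrays. The 3 shCON and 3 shCypB values did not overlap for 16 of the 28 probes, against 46.3% of all probes tested. The median log2 change was 0.13 over the 25 kept genes, 0.00 with the 6 genes undetected throughout 1 group set to their bounds, and 0.02 over all genes. It was 0.60 over the members detected on 3 or more arrays, a filter that leaves 20 probes.

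**Figure D2:**
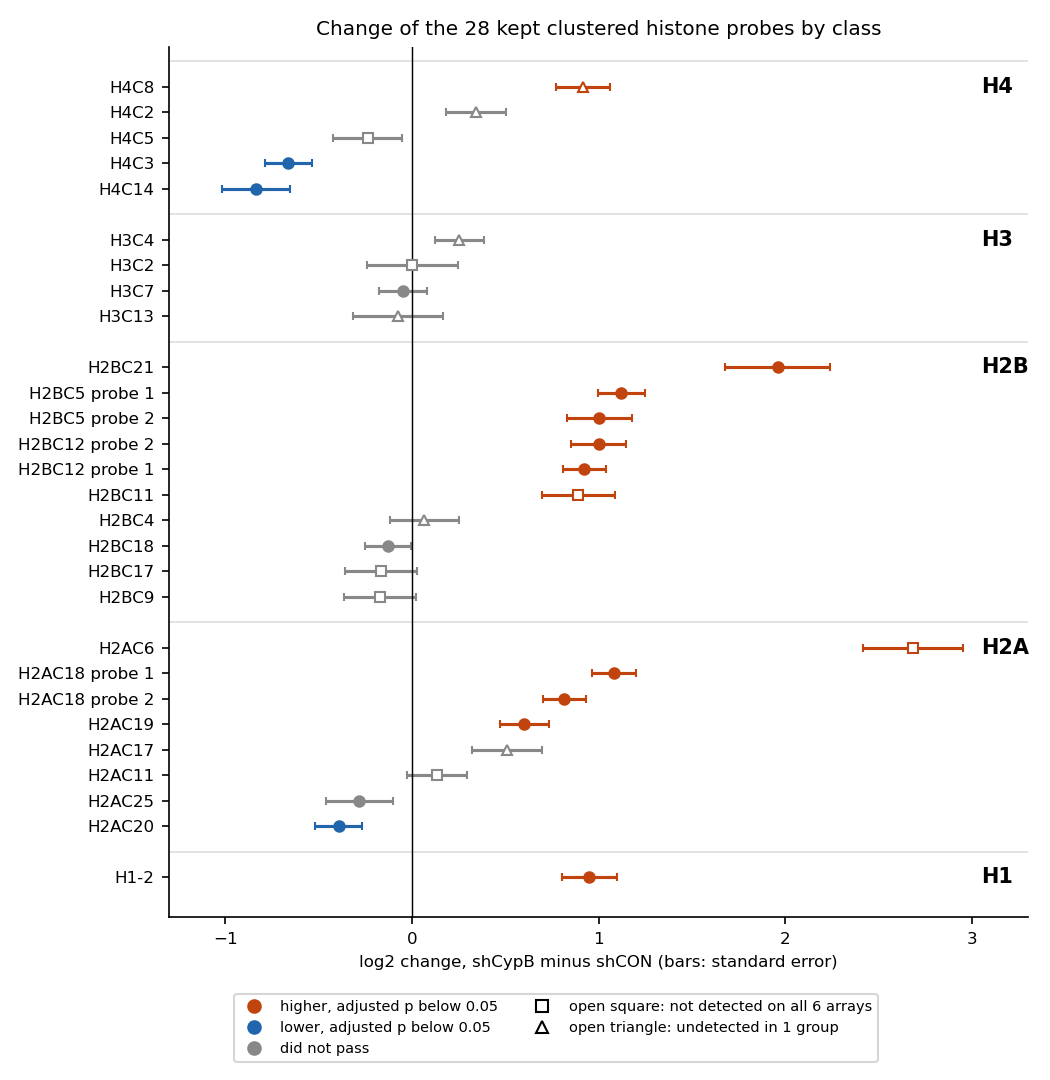
Log2 change (shCypB minus shCON, x axis) of the 28 kept probes, grouped by histone class; bars are standard errors from limma with 3 arrays per group, and open triangles are fitted values of probes undetected throughout 1 group, not measured folds. H2AC6 at 2.68 and H2BC21 at 1.96 lie farthest to the right, H4C14 at -0.83 farthest to the left, and the 4 H3 probes lie around 0.

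The H2B class had 10 kept probes of 23. Of these 6 were higher, 0 lower and 4 not passed. H2BC21, a core H2B gene of the second cluster, read 5.49, 6.68 and 6.27 (log2 signal) in shCON and 7.97, 8.30 and 8.05 in shCypB. All 3 shCypB arrays lay above all 3 shCON arrays, among which shCON 1 was lowest. The log2 change was 1.96 ± 0.28 (SE), or 3.89-fold (adjusted p = 0.0019). With the authors' processed intensities it was 1.36, and with no background correction 1.39. The first probe of H2BC12, an H2B gene of the first cluster, read 10.15, 10.22 and 10.12 against 11.27, 10.99 and 11.004. Its second probe read 7.07, 7.11 and 7.21 against 8.22, 8.34 and 7.83. The groups were apart on both probes, and the changes of 0.92 ± 0.11 and 1.001 ± 0.15 were of like size (adjusted p = 0.0010 and 0.0021).

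H2BC5, another H2B gene of the first cluster, had 2 probes to 1 transcript that read the same way. The first gave 7.14, 7.17 and 7.27 in shCON and 8.53, 8.27 and 8.15 in shCypB, and the second 5.82, 6.09 and 5.45 against 6.95, 6.65 and 6.77. Neither probe's groups overlapped, and the changes were 1.12 ± 0.12 and 1.004 ± 0.18 (adjusted p = 0.00065 and 0.0044). Another H2BC5 probe, to a different transcript, was undetected on all 6 arrays. H2BC11, which shares a promoter region with the H2A gene H2AC11, read 5.09, 5.34 and 4.55 against 5.87, 5.82 and 5.97. It was detected on 1 shCON array and on all 3 shCypB arrays, which lay above every shCON array (0.89 ± 0.19, adjusted p = 0.011). The size was smaller, at 0.50, both with no background correction and with the authors' processed intensities. Of the 4 H2B genes that did not pass, H2BC18 alone was detected on all 6 arrays, with 6.13, 5.81 and 5.81 against 5.86, 5.72 and 5.79. These values overlapped (-0.13 ± 0.12, adjusted p = 0.48). H2BC9 and H2BC17 had changes of -0.17 each, and H2BC4 was undetected on all shCON arrays.

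In the H2A class 8 of 19 probes were kept, and 4 were higher, 1 lower and 3 not passed. H2AC6, an H2A gene of the first cluster, had the greatest change of the kept probes. It read 5.12, 5.60 and 4.68 in shCON, where 1 array detected it, and 8.11, 7.39 and 7.95 in shCypB, where all 3 did. The lowest shCypB array stood well above the highest shCON array. The log2 change was 2.68 ± 0.27, or 6.42-fold (adjusted p = 0.00046). The size was smaller, at 1.73, with no background correction and, at 1.72, with the authors' processed intensities. H2AC18 and H2AC19 are near-identical copies whose promoter windows share an unbroken run of 299 of 300 bases, so their probes may not tell them apart. Signal shared between probes of like histone genes was not tested for any member. The first H2AC18 probe read 7.87, 7.63 and 7.54 against 8.81, 8.76 and 8.72. The H2AC19 probe read 7.99, 8.26 and 7.93 against 8.82, 8.56 and 8.60. Both had their groups apart, with changes of 1.08 ± 0.12 and 0.60 ± 0.13 (adjusted p = 0.00058 and 0.011), and the second H2AC18 probe, at 7.22, 7.24 and 6.94 against 7.92, 7.98 and 7.95, changed by 0.82 ± 0.11.

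H2AC20 went down. It read 8.18, 8.54 and 8.49 in shCON and 8.08, 8.01 and 7.94 in shCypB. The groups did not overlap, but shCON 1 lay only slightly above shCypB 1. The change was -0.39 ± 0.12 (adjusted p = 0.047). That call was lost when shCON replicate 2 or 3 or any 1 shCypB replicate was left out, with a change of -0.11 under median scaling (adjusted p = 0.81). H2AC25, the kept gene of the third cluster, read 7.58, 8.14 and 7.66 against 7.70, 7.29 and 7.55, with overlap (-0.28 ± 0.18, adjusted p = 0.28). H2AC17, undetected in shCON and detected on 2 shCypB arrays, did not pass (adjusted p = 0.074) and is given no fold. H2AC11 changed by 0.13 ± 0.16 (adjusted p = 0.58).

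**Figure D3:**
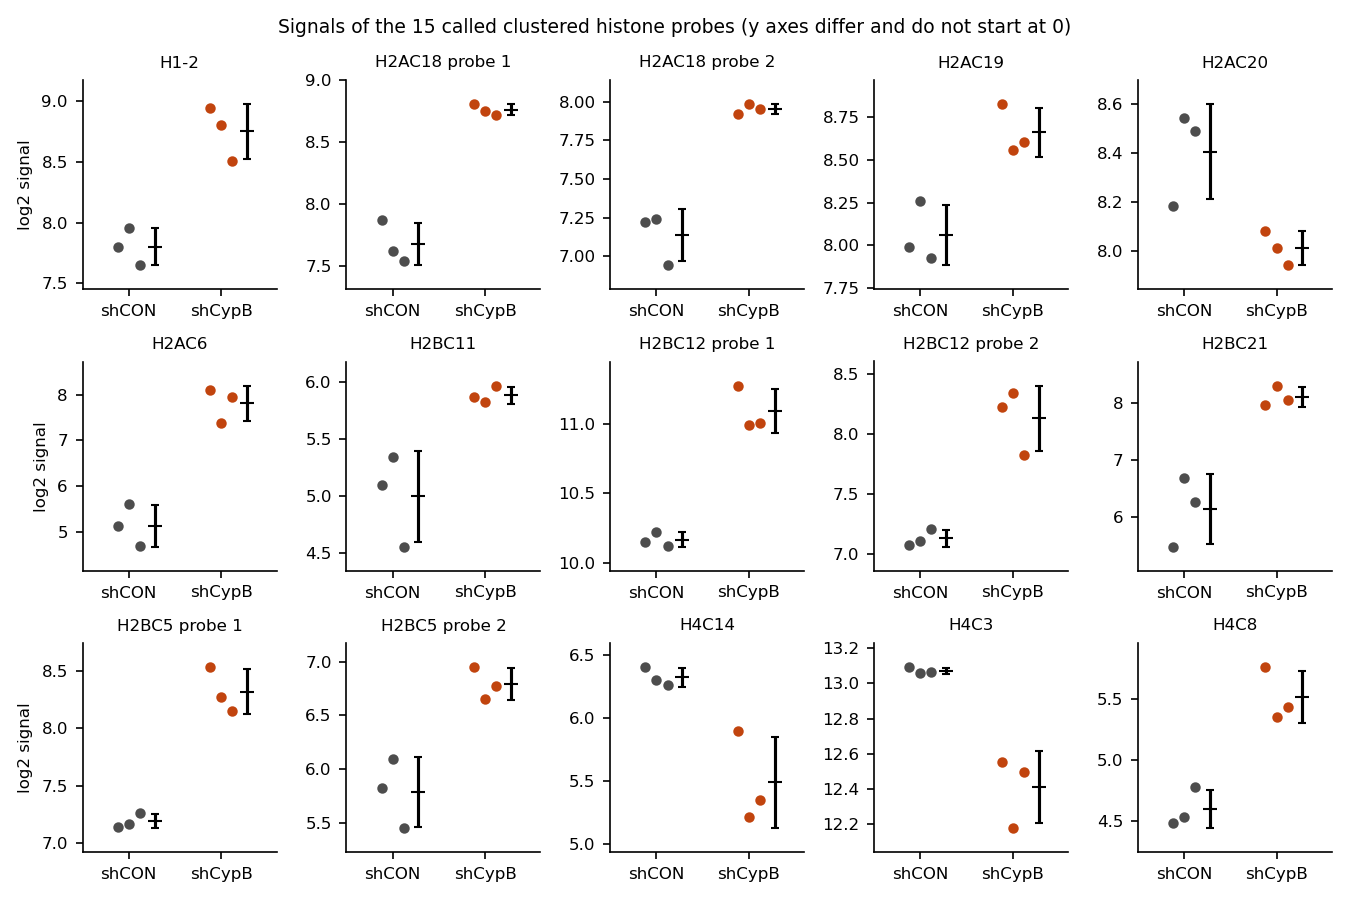
Log2 signals of the 15 probes that passed the test, on the 3 shCON and 3 shCypB arrays (points), with the mean and SD beside them; each panel has its own y axis, which does not start at 0. The 12 higher and 3 lower probes all have groups that do not overlap.

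Several H2A and H2B genes lie head to head and share a promoter region. The starts of H2BC21 and H2AC20 are 236 bases apart, and the sequence printed for H2BC21 is, on the other strand, almost all of the H2AC20 promoter: the 300-base windows share an unbroken run of 265 bases. The difference of their log2 signals (H2BC21 minus H2AC20) was -2.70, -1.86 and -2.22 in shCON and -0.12, 0.29 and 0.10 in shCypB. It moved by 2.35, and the groups did not overlap. H2AC6 and H2BC4 start 246 bases apart, and no size is given for their difference, since 1 shCON array detected H2AC6 and 0 detected H2BC4. H2BC4 itself read 4.81, 4.98 and 5.06 against 5.30, 4.62 and 5.14, undetected on all shCON arrays and detected on 2 of the shCypB arrays, and its groups overlapped. For H2BC11 and H2AC11, 248 bases apart, the difference was -0.13, 0.11 and -1.12 in shCON and 0.18, 0.50 and 0.45 in shCypB. No size is given for its move, since 1 shCON array detected H2BC11 and shCON 3 lay far below the rest. H2AC17 and H2BC17, 240 bases apart, were too seldom detected for a difference. These differences are given as a description and were not tested.

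**Figure D4:**
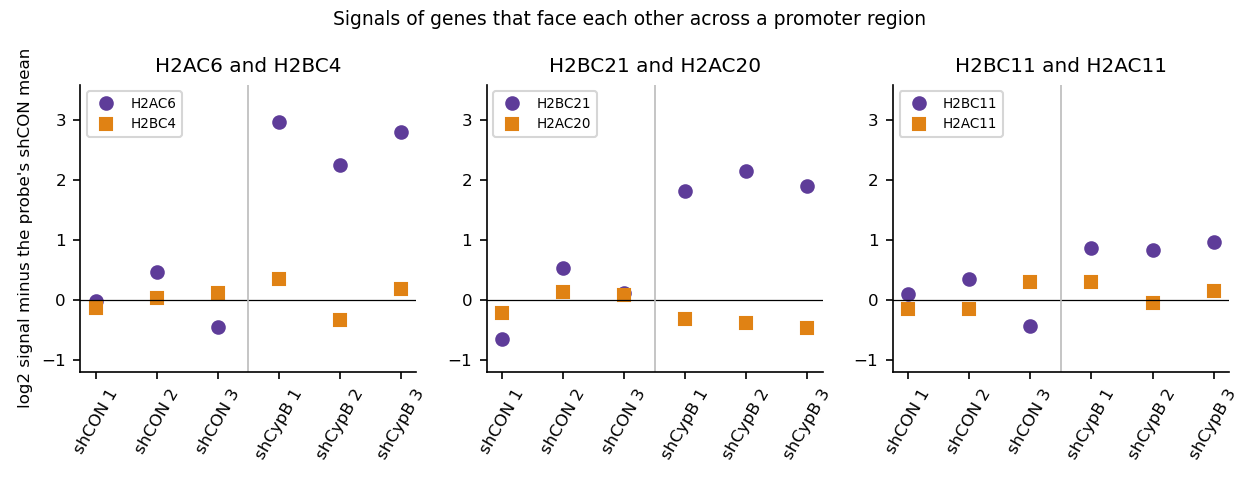
Log2 signal minus the probe's own shCON mean (y axis) on each of 6 arrays (x axis) for 3 pairs of genes that face each other. H2BC21 and H2AC6 stand well above 0 on all 3 shCypB arrays while H2AC20 lies below 0 there and H2BC4 on both sides of 0.

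H1-2, the 1 linker histone probe kept of 6, read 7.80, 7.95 and 7.65 in shCON and 8.95, 8.81 and 8.51 in shCypB. The shCypB arrays were all higher, by 0.95 ± 0.15 (adjusted p = 0.0024).

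The H4 class had 5 kept probes of 15, of which 1 was higher, 2 lower and 2 not passed. The kept H4 genes are copies that encode the same protein. H4C3, of the first cluster, read 13.09, 13.06 and 13.06 in shCON and 12.56, 12.18 and 12.50 in shCypB. The shCON arrays were nearly equal, and all shCypB arrays lay below them. The change was -0.66 ± 0.12, a 1.58-fold fall (adjusted p = 0.0059), with -0.43 and no call under median scaling (adjusted p = 0.20). H4C14, of the second cluster, read 6.40, 6.30 and 6.26 against 5.90, 5.21 and 5.35, again with all shCypB arrays below. It changed by -0.83 ± 0.18 (adjusted p = 0.011). The fall was smaller, at -0.45, with no background correction and, at -0.47, with the authors' processed intensities. H4C3 changed by -0.66 and -0.63 under the same settings. The printed promoter of H4C14 holds none of the 3 motifs. H4C8 was undetected in shCON (4.48, 4.53 and 4.78) and detected on all shCypB arrays (5.76, 5.35 and 5.43), which makes it at least 1.21-fold higher (adjusted p = 0.0027). H4C5 did not pass, at -0.24. H4C2, undetected on all shCON arrays and given no fold, did not pass either (adjusted p = 0.15), but passed without shCypB replicate 1 (adjusted p = 0.027).

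In the H3 class 4 of 16 probes were kept and 0 passed (limma, lowest adjusted p 0.18), and 0 had an unadjusted p below 0.05. H3C7, the 1 H3 probe detected on all 6 arrays, read 5.56, 5.27 and 5.62 against 5.56, 5.36 and 5.38. Its groups overlapped (-0.05 ± 0.13, adjusted p = 0.81). H3C4 read 4.79, 5.07 and 4.74 against 5.26, 4.98 and 5.13, undetected in shCON, and is given no fold. H3C13 read 5.61, 5.24 and 4.57 against 5.08, 5.04 and 5.08, undetected in shCypB, and H3C2 read 4.84, 5.38 and 4.55 against 5.31, 4.69 and 4.79. These signals lay close to the lowest detected ones of each array, which were 5.12 to 5.29. A modest change in H3 mRNA may thus have been missed, and how large a change would pass was not tested.

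By cluster, 8 of the 19 kept probes of the first cluster were higher and 1 lower. In the second, 4 of 8 were higher and 2 lower. The third had 1 kept probe, H2AC25, which did not pass, and the fourth had 0. Over all probes tested the shares were 17.2% higher and 15.4% lower. The higher probes of the second cluster include those of H2AC18 and H2AC19, which may not be told apart. The 8 probes just inside the detection rule, detected on 2 arrays, had signals of 4.55 to 5.68 and fitted differences of -0.24 to 0.51, which are not measured folds where a group is undetected. The 8 just outside, detected on 1 array, had signals of 4.49 to 5.91 and differences of -0.29 to 0.15. The other 43 probes were detected on 0 arrays, at 4.35 to 5.15. They include linker histone genes H1-3, H1-4 and H1-5. In all 45 of the 70 genes had no kept probe, and nothing can be said of their change.

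Replacement histones are made outside the clusters, mostly from polyadenylated mRNA, and many of them, though not all, throughout the cell cycle. Of 10 tested, 3 were higher, 2 lower and 5 not passed, with a median log2 change of 0.17. Of all genes tested, 20.4% were higher and 18.4% lower, so these counts are near what all genes gave. H3-3B, which encodes H3.3, the H3 form deposited without replication, read 9.99, 9.77 and 9.96 in shCON and 10.82, 11.01 and 10.68 in shCypB (0.93 ± 0.12, adjusted p = 0.0013). All shCypB arrays lay above. H3-3A, the second H3.3 gene, rose by 0.41 on 1 of its 3 tested probes and H3-5, an H3.3-like gene, by 0.45. H2AX, the H2A form phosphorylated at DNA breaks, read 8.39, 8.46 and 8.50 against 7.88, 7.85 and 7.77 (-0.62 ± 0.09, adjusted p = 0.0025). CENPA, the centromeric H3, changed by -0.57. Neither fall passed under median scaling. H2AZ1, a variant at promoters, had a change of 0.05 that did not pass (adjusted p = 0.76). MACROH2A1 counts as not passed by its brightest probe (-0.26, adjusted p = 0.11). Its 3 tested probes changed by -1.32 to -0.25, and 1 of them passed.

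Of 20 tested genes that act in histone gene transcription and 3′ end processing, 2 were higher, 6 lower and 12 not passed (median -0.13). The shares over all genes tested were 20.4% higher and 18.4% lower. NPAT, the co-activator of histone genes that cyclin E and CDK2 phosphorylate, read 5.30, 5.47 and 5.76 in shCON and 6.16, 6.19 and 6.09 in shCypB. It was higher on every shCypB array (0.64 ± 0.13, adjusted p = 0.0096). CCNE1 (cyclin E1) and CDK2 changed by -0.92 ± 0.10 and -0.90 ± 0.12, while a second CCNE1 probe changed by -0.27 and did not pass. SLBP, the stem-loop binding protein, read 9.29, 9.30 and 9.51 against 9.03, 8.91 and 8.79 (-0.46 ± 0.12, adjusted p = 0.020), and its other tested probe changed by -0.25 and did not pass. SYMPK, a scaffold of the cleavage complex, changed by -1.02 ± 0.18, but only 1 shCypB array detected it. LSM1, part of a ring that acts in histone mRNA decay, changed by 0.49 ± 0.10. The 6 lower calls became 3 under median scaling, with the replicate number as a block, and also without shCON replicate 3, shCypB replicate 2 or shCypB replicate 3.

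Among histone chaperones and assembly factors, which carry histones to DNA, 1 of 21 tested genes was higher, 7 lower (3 under median scaling) and 13 not passed (median -0.18). Over all genes tested the shares were 20.4% higher and 18.4% lower. IPO4, an importin that carries H3 and H4 into the nucleus, changed by -1.44 ± 0.12. ASF1B, a chaperone of H3 and H4, changed by -1.36 ± 0.13, and HJURP, the chaperone of CENPA, by -0.95 ± 0.12. MMS22L, a partner of TONSL at replication forks, changed by -0.69 ± 0.12, with only 1 shCypB array detecting it. CHAF1A and CHAF1B, subunits of the CAF-1 complex that loads histones at forks, changed by -0.55 and -0.56. DAXX, which loads H3.3, changed by 0.38 (adjusted p = 0.048), a call lost without shCON replicate 2 or any 1 shCypB replicate.

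S phase and replication genes went down: of 29 tested, 0 were higher, 27 lower and 2 not passed (limma), with a median of -0.75. All genes tested gave 20.4% higher and 18.4% lower. RRM2, a subunit of the enzyme that makes deoxynucleotides, changed by -1.36 ± 0.12 and TK1, thymidine kinase, by -1.23 ± 0.12. CDC45, part of the replicative helicase, changed by -1.13 ± 0.11, and GINS4, of the same helicase, was at least 1.76-fold lower. Under median scaling, which moved the median of all genes from 0.02 to 0.23, the count of lower genes was 8. The part of these genes' lower signal in the calls of clustered histone genes was not tested. All 4 lists, like the members, were chosen with earlier results of these data known.

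**Figure D5:**
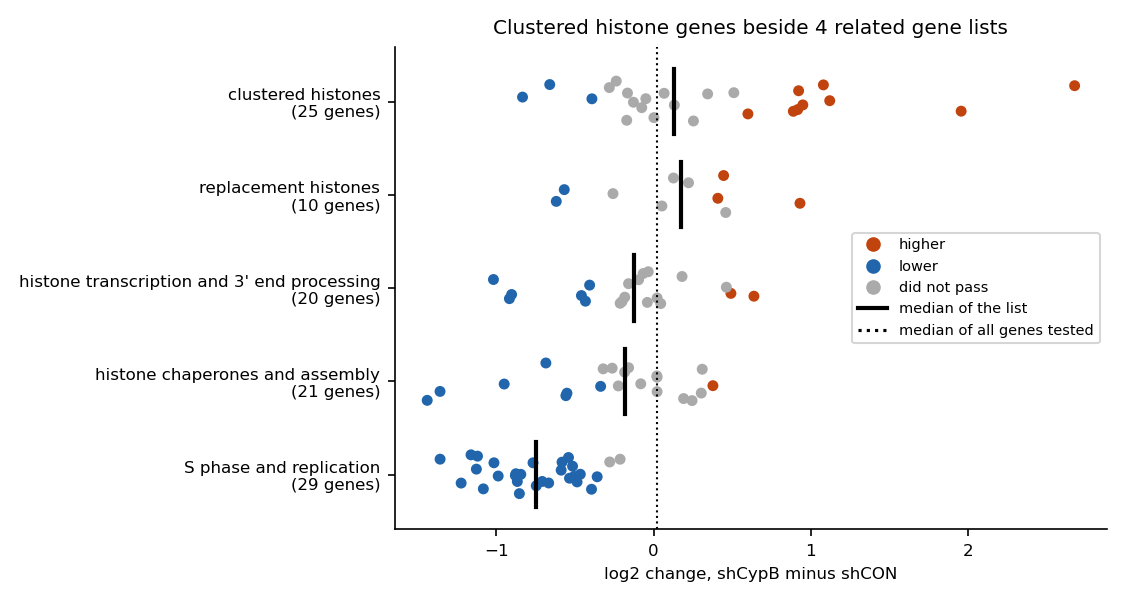
Log2 change (shCypB minus shCON) of each tested gene of the clustered histones and 4 related lists; thick bars are list medians and the dotted line is the median of all genes, 0.02. Clustered histones spread from -0.83 to 2.68, while all 29 S phase genes lie below 0.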

How the data were processed

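The deposited table holds each probe's bead signal intensity, on a linear scale and not normalized, per the file headers, and beside each intensity the deposited detection p-value. The authors also deposited processed intensity values of the same arrays, used as an alternative. Partek is named in the submitters' processing notes, and its role and the normalization are not given in the sources used here.

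Signals were corrected with limma 3.58.1 (R 4.3.3) by normexp with detection p-values and an offset of 16, quantile normalized and log2 transformed. Probes with detection p below 0.05 on 2 or more of 6 arrays (19876) were fitted with group as the only term (4 residual degrees of freedom). P-values were adjusted by Benjamini-Hochberg over all of them, and called below 0.05. ± after a change is its standard error. A gene stands for its brightest tested probe, and signals of different probes are not comparable as levels. For a probe undetected throughout a group, the fold is a bound against the lowest detected signal. The number of arrays limits the precision.

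Symbols came from GEO's platform annotation: 30113 probes name 1 gene, 8 several and 17110 were not listed. H3-4 entered through its older name in RefSeq, and 1 probe naming 2 clustered histone genes was left out. The members and lists were chosen with earlier results of these data known. Named are kept members, up to 6 called genes of greatest change from each list, and PPIB, CDKN1A, SLBP, NPAT, H3-3B, H2AX and H2AZ1. DAXX, MACROH2A1 and the markers of cell types were named after their values were seen. Of 50 simulated probes per size, 26%, 50%, 84% and 90% were called at 1.5-, 2-, 3- and 4-fold. Far fewer probes changed there than in the data, with 131 calls in the simulation against 6483. The adjustment was thus stricter in the simulation, and these shares do not give the power of the fit to the data. Same-numbered arrays did not deviate together (r = -0.08, -0.11 and 0.002), so replicate numbers were not taken to pair them. P-values measure the spread between these arrays only.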

Additional observations from a re-analysis of the deposited data

How the results depend on the processing

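Of the 15 calls of clustered histone probes, 13 held under every alternative in which the probe was tested, and 0 of the 15 changed direction. Of the members that did not pass, H2AC25 and H2BC18 turned sign under median scaling (to 0.0015 and 0.050), H3C7 under it and without shCON replicate 3, and H2BC4, H3C2 and H3C13, all near 0, under several alternatives each. H2AC20 lost its call with no filter on dim probes (adjusted p = 0.079), under median scaling, with the replicate block (0.094) and without 5 of the 6 arrays in turn, and H4C3 under median scaling. With a detection p below 0.01 on all 6 arrays, 7 members were higher of 11 tested, since fewer are tested. The called probes of H2AC6, H2BC21, H2BC11, H4C8 and H4C14 and the second H2BC5 probe were not tested under that filter. That filter and detection on 3 or more arrays both gave a median of 0.60. With 1 array left out the members higher were 12 to 13 and lower 2 to 3, their median was 0.046 to 0.25, and the calls over all probes were 2440 to 2992 higher and 2293 to 2796 lower. The lists then gave 2 to 3 replacement histones higher and 2 lower, 2 to 3 processing genes higher and 3 to 6 lower, 0 to 1 chaperones higher and 5 to 6 lower, and 0 S phase genes higher and 24 to 26 lower. Median scaling moved the median of all genes to 0.23 and the higher share of all calls from 52.7% to 80.3%. It left lower 1 member, 913 probes in all, 0 replacement histones, 3 processing genes, 3 chaperones and 8 S phase genes. The cause was not tested. With the replicate number as a block, processing genes lower were 3 and chaperones higher 0, and no count of members moved by over 1.5 times. Chaperones higher were 0 with no filter, and 2 with either stricter filter, an offset of 50, no background correction, the authors' intensities or the mean of a gene's probes. The filter for detection p below 0.05 on all 6 arrays was chosen after seeing the data. Slide as a block was not run, since the files name no slide. Signals near background limit the H3 genes and the 51 probes below the rule.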
